A study of Homo sapiens with 18 samples.

Results

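The genes described here are 10 non-coding host genes of small nucleolar RNAs (snoRNAs): SNHG1, SNHG3, SNHG5, SNHG6, SNHG7, SNHG8, SNHG12, SNHG15, SNHG16 and GAS5. They were taken as the rows of the deposited gene table whose Ensembl identifier maps to these symbols, which gave 10 of 58735 genes. All 10 passed the count filter that left 17346 genes for testing, and each was measured in 18 libraries. All libraries were made from RPMI-8402 cells, an established line from a human T-cell leukaemia, kept in culture medium with 10% serum. The line was used as a non-targeting control (NT, whose genotype the labels give as WT) and as a PIK3R1 knockout (KO). PIK3R1 encodes a subunit that regulates phosphoinositide 3-kinase. Cells of both genotypes received DMSO (the vehicle), CB-103 (a NOTCH inhibitor) or LY3039278 (GSI, a gamma-secretase inhibitor, which blocks the cleavage that releases active NOTCH) for 24 h. This gave 6 groups of 3 libraries. The labels give neither doses nor whether the KO cells were 1 clone or a pool. Nothing in them says that the replicates of a group were grown apart, so p-values measure only the spread between libraries, which may be technical.

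snoRNAs guide the chemical modification of ribosomal and other RNAs in the nucleolus: those with box C/D motifs guide ribose methylation and those with box H/ACA motifs guide pseudouridylation. In human cells most of them are cut out of introns, and in the SNHG genes and GAS5 the exons code for no known long protein. The spliced host RNA of several of these genes begins with a run of pyrimidines like the RNAs of ribosomal proteins, is loaded on ribosomes, and is broken down by nonsense-mediated decay, so that its level can rise when translation slows. GAS5 was first found as a transcript that accumulates in growth-arrested cells.

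In the annotation used (GENCODE 29, hg38), box C/D snoRNAs lie inside SNHG1 (chr11:62851988-62855914, minus strand, 7 snoRNA genes), SNHG5 (chr6:85660950-85678748, minus, 1), SNHG6 (minus, 1) and SNHG16 (chr17:76557766-76565348, plus, 3). Box H/ACA snoRNAs lie inside SNHG3 (chr1:28505980-28510892, plus, 2), SNHG7 (chr9:136721366-136728184, minus, 3 named records), SNHG8 (chr4:118278709-118279823, plus, 1) and SNHG15 (chr7:44983023-44986961, minus, 1). SNHG12 (chr1:28578538-28583132, minus) holds 1 C/D and 4 H/ACA records. GAS5 (chr1:173863900-173868882, minus) is known as a host of box C/D snoRNAs, and the annotation used lists none inside it. The snoRNAs below show what the hosts carry: one each from SNHG1 and SNHG12, which rose most with CB-103, from SNHG16 and SNHG3, which fell, and from SNHG5, the most abundant host RNA in NT DMSO. Capitals mark box C (TGATGA) and box D (CTGA) in C/D snoRNAs and the ACA box in H/ACA snoRNAs.
SNORD25 (SNHG1, chr11:62855564-62855632, minus): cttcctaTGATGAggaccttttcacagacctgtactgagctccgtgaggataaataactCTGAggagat
SNORD50B (SNHG5, chr6:85677589-85677658, minus): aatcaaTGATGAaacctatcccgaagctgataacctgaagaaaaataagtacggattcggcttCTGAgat
SNORD1B (SNHG16, chr17:76561109-76561192, plus): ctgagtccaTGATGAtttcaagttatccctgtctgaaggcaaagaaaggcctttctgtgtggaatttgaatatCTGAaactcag
SNORA61 (SNHG12, chr1:28579764-28579893, minus): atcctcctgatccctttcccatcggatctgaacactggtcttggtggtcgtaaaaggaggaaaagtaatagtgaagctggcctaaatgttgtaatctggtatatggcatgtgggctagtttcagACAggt
SNORA73B (SNHG3, chr1:28508559-28508762, plus): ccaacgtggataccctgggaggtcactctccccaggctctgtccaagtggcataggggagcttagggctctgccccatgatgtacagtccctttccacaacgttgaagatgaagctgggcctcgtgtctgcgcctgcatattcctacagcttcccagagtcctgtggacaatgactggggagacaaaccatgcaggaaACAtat

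The snoRNAs themselves were not followed in these polyA libraries: of 35 snoRNA genes that the host genes are known to carry, 24 were matched by symbol, and 2 of these passed the count filter. All values below are therefore of the host RNA.

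The labels and libraries were checked first. PIK3R1 ranged from 42.5 to 45.5 CPM (counts relative to the library's scaled total) in NT DMSO and from 21.4 to 23.2 CPM in KO DMSO (edgeR adjusted p = 4.1e-07), while under CB-103 NT and KO libraries overlapped for it (edgeR adjusted p = 0.17). RNA of the gene remained in KO cells. As further checks of the labels, DTX1 and MYC were called lower with both inhibitors in both genotypes. In NT cells the log2 fold changes of DTX1 were -2.80±0.08 with CB-103 and -3.45±0.08 with GSI. Those of MYC were -2.20±0.07 and -1.96±0.07. All 8 T-lineage and leukaemia markers examined were measured, with a summed level of 976 to 1787 CPM, against at most 2.28 CPM for 4 B-cell, 1.72 for 4 myeloid and 0.170 for 3 erythroid markers. Markers of adherent cells summed to 2.77 to 26.0 CPM and were lowest with CB-103. The T-lineage sum was lower in all CB-103 libraries (976 to 1065 CPM) than in all others (1322 to 1787 CPM), and its part in the results below was not tested. Mitochondrially encoded genes took 3.09% to 3.72% of counts in NT DMSO, 4.73% to 5.47% in NT CB-103, 1.69% to 1.88% in KO DMSO and 1.89% to 2.69% in KO CB-103, groups that did not overlap between CB-103 and DMSO or between genotypes. In NT GSI they took 1.90% to 5.51%. The part of this share in the results below was not tested. Library totals ran from 30416183 to 43558387 estimated reads, and in bulk RNA fewer cells of a type and less RNA per cell cannot be told apart.

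Levels of different genes were compared per length, as TPM, the authors' length-scaled transcript abundance. In NT DMSO the most abundant host RNA was SNHG5 at 1287±12.5 TPM (SD, n = 3), followed by GAS5 at 803±22.6 TPM, SNHG8 at 566±32.9 TPM and SNHG6 at 439±20.9 TPM. SNHG1 stood at 253±22.5 TPM and SNHG16 at 113±1.58 TPM. The lowest were SNHG15 at 76.0±4.78 TPM, SNHG7 at 64.8±4.96 TPM, SNHG3 at 55.0±2.89 TPM and SNHG12 at 41.6±0.900 TPM. No neighbours in that order overlapped between libraries. With CB-103 in NT cells the order changed: GAS5 came first at 2316±175 TPM, above SNHG5 at 1699±33.6 TPM, and SNHG1 reached 970.5±58.2 TPM, overlapping SNHG8 at 940.5±22.6 TPM. SNHG16 and SNHG3 moved to the end, at 60.3±1.55 and 27.8±5.05 TPM. Together the 10 genes took 0.103% to 0.112% of counts in NT DMSO and 0.202% to 0.226% in NT CB-103.

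The first comparison asked how CB-103 changed the host genes in NT cells. Of the 10 host genes 8 rose and 2 fell, where edgeR called 58.2% of the genes at an adjusted p under 0.05 (29.5% higher, 28.7% lower). Their median log2 fold change was 0.75, against 0.04 for all genes tested. The 10 were chosen with earlier results of these data known, so this contrast, here and below, is a description. In each of the 10 genes the 3 CB-103 libraries lay apart from the 3 DMSO libraries.

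Among the hosts of box C/D snoRNAs, SNHG1, the gene first described as the host of the U22 snoRNA, stood at 124, 127 and 147 CPM in DMSO and at 477, 483 and 514 CPM with CB-103. That is a 3.70-fold rise (1.89±0.08 as log2 fold change ± SE, 3 libraries against 3, edgeR adjusted p = 8.8e-13). GAS5 went from 240.1, 243 and 253 CPM to 648, 686 and 713 CPM, 2.78-fold higher (1.47±0.08, edgeR adjusted p = 4.4e-11). The lowest CB-103 library of GAS5 was thus far above every DMSO library, as it was for SNHG1. SNHG5, host of SNORD50, moved less, from 236, 227 and 234 CPM to 309.9, 280.3 and 299.6 CPM (1.28-fold, 0.35±0.06, edgeR adjusted p = 3.8e-05). SNHG6, host of SNORD87, went from 75.9, 73.7 and 81.8 CPM to 90.8, 93.6 and 96.6 CPM (1.21-fold, 0.28±0.07, edgeR adjusted p = 0.0030). Both rises were small beside those of SNHG1 and GAS5. SNHG16, which carries the SNORD1 family, went the other way: 136, 135 and 133 CPM in DMSO became 71.2, 69.4 and 68.4 CPM. It fell 1.93-fold (-0.95±0.04, edgeR adjusted p = 7.0e-13) with very little spread in either group.

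SNHG12, which holds both classes of snoRNA, had the steepest rise of the 10. Its DMSO libraries stood at 20.8, 20.3 and 21.5 CPM and its CB-103 libraries at 119, 107 and 124 CPM, a 5.59-fold difference (2.48±0.09, edgeR adjusted p = 1.4e-13). The gene that was lowest of the 10 per length in DMSO thus became the sixth.

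Hosts of box H/ACA snoRNAs split in the same manner. SNHG7, host of the SNORA17 pair, went from 21.5, 23.7 and 24.9 CPM to 55.2, 55.0 and 56.6 CPM (2.38-fold, 1.25±0.08, edgeR adjusted p = 3.3e-10). SNHG15, host of SNORA9, went from 43.4, 47.5 and 48.3 CPM to 74.3, 81.5 and 89.2 CPM (1.76-fold, 0.81±0.11, edgeR adjusted p = 5.5e-06). SNHG8, host of SNORA24, went from 121, 125 and 136 CPM to 209, 203 and 201 CPM (1.60-fold, 0.68±0.06, edgeR adjusted p = 6.6e-09). These 3 genes rose in every CB-103 library relative to every DMSO library. SNHG3 did not follow them: this host of SNORA73A and SNORA73B (also called U17, which takes part in the cleavage of ribosomal RNA precursors) stood at 62.0, 58.8 and 66.3 CPM in DMSO and at 27.9, 26.8 and 36.6 CPM with CB-103. It fell 2.05-fold (-1.04±0.11, edgeR adjusted p = 1.5e-07), with CB-103 replicate 3 higher than the other two.

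**Figure D1:**
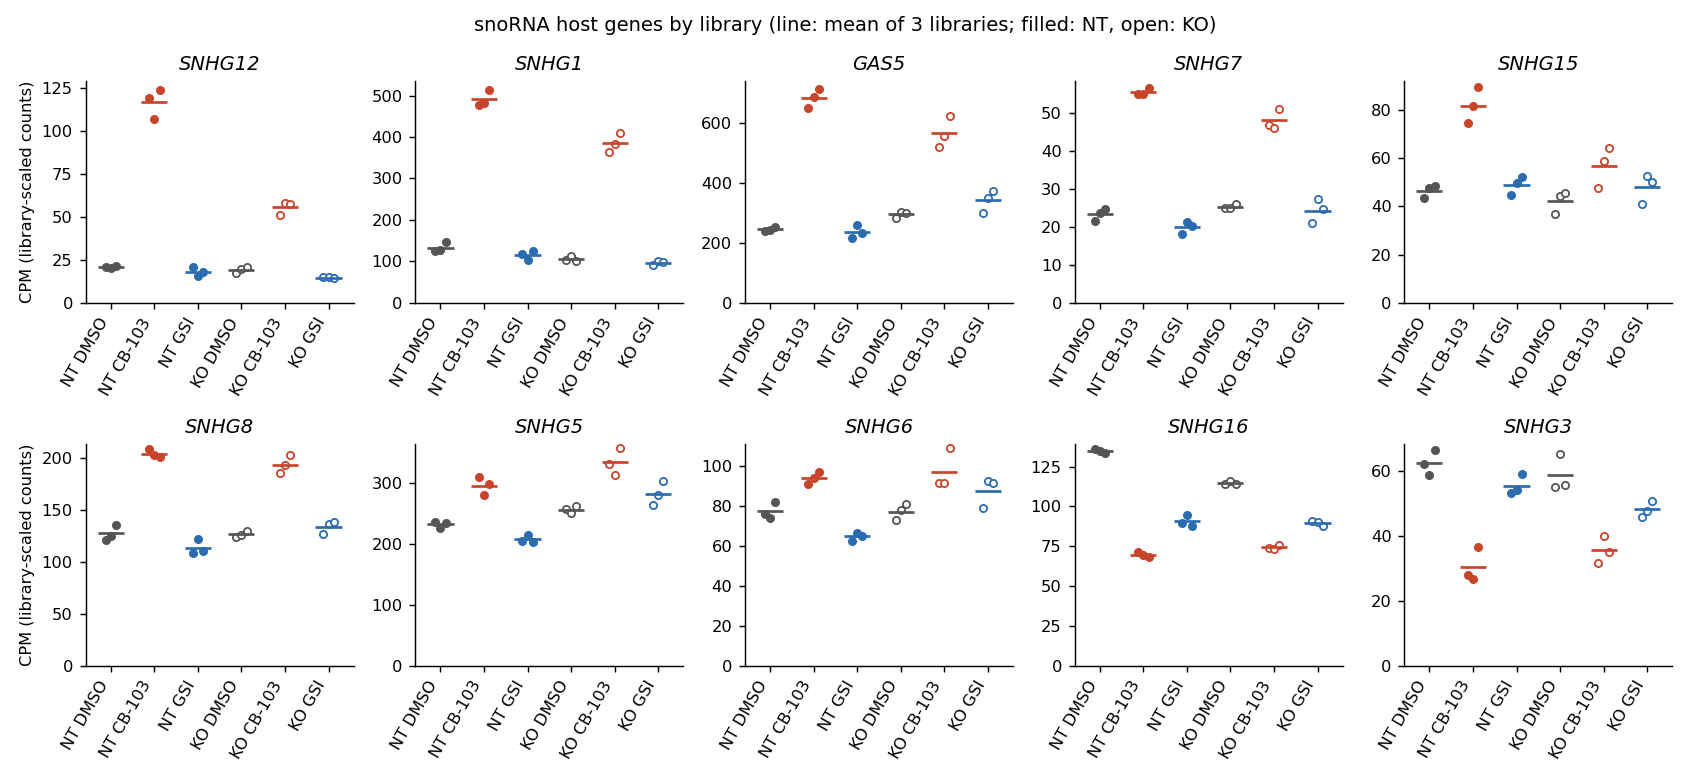
Level of each host gene in all 18 libraries, as library-scaled CPM (y axis from 0) by group (x axis). Points are libraries (filled NT, open KO) and lines are means of 3. CB-103 libraries sit highest in the first 8 panels for NT cells and lowest for SNHG16 and SNHG3.

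The same question in PIK3R1 knockout cells gave the same directions. With CB-103 in KO cells 8 host genes rose and 2 fell, where 48.6% of genes were called (24.9% higher, 23.7% lower). The members' median was 0.52, against -0.01 for all genes. SNHG1 went from 102.6, 112 and 102 CPM to 364, 382 and 411 CPM (3.65-fold, 1.87±0.08, edgeR adjusted p = 2.0e-12). SNHG12 went from 17.4, 20.02 and 20.9 CPM to 51.3, 58.2 and 57.7 CPM (2.86-fold, 1.52±0.09, edgeR adjusted p = 1.8e-10). GAS5 went from 282, 302 and 300.3 CPM to 520.3, 556 and 622 CPM (1.92-fold, 0.94±0.08, edgeR adjusted p = 2.7e-08). In all 3 genes the KO CB-103 libraries lay above the KO DMSO libraries. SNHG16 fell from 114, 116 and 114 CPM to 74.2, 73.1 and 76.0 CPM (1.55-fold, -0.63±0.04, edgeR adjusted p = 3.4e-10). SNHG3 fell from 55.1, 65.1 and 55.7 CPM to 31.5, 40.0 and 34.8 CPM (1.65-fold, -0.73±0.11, edgeR adjusted p = 1.7e-05). The other members had log2 fold changes of 0.92 for SNHG7, 0.61 for SNHG8, 0.43 for SNHG15, 0.38 for SNHG5 and 0.33 for SNHG6, and their libraries did not overlap either.

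Whether the response to CB-103 depended on the genotype was tested as an interaction, the response of KO cells minus that of NT cells. It was called for 3 of the 10 genes, 2 lower and 1 higher, where 14.6% of all genes were called (4.34% lower and 10.3% higher). SNHG12 rose less in KO cells (-0.96±0.12 on the log2 scale, edgeR adjusted p = 7.1e-05), as its CB-103 libraries reached 51.3 to 58.2 CPM there and 107 to 124 CPM in NT cells. GAS5 also rose less in KO cells (-0.53±0.11, edgeR adjusted p = 0.0043). SNHG16 fell less (0.32±0.05, edgeR adjusted p = 7.3e-04). In SNHG1 the responses of the genotypes were close (-0.02±0.11, edgeR adjusted p = 0.94), and SNHG5 (0.03±0.08) and SNHG6 (0.05±0.10) were alike in size too, within these errors. SNHG15 (-0.38±0.16, edgeR adjusted p = 0.12) and SNHG7 (-0.33±0.11, edgeR adjusted p = 0.064) had estimates of a smaller rise in KO cells that did not pass in this fit, and both calls depended on the setting. SNHG15 passed with no count filter (-0.37, edgeR adjusted p = 0.028) and in replicates 2 and 3 only (-0.36, 0.016). SNHG7 passed with only the groups compared (-0.31, edgeR adjusted p = 0.022) and with transcript sums (-0.30, 0.039). It also passed without KO CB-103 replicate 3 (edgeR adjusted p = 0.0496), and SNHG3 (0.31±0.15) passed without NT CB-103 replicate 3 (0.46, edgeR adjusted p = 0.027).

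How a gamma-secretase inhibitor acts on the same genes was asked next. In NT cells GSI lowered 4 of the 10 host genes, where 24.7% of genes were called (15% lower, 9.67% higher). The members' median was -0.18. SNHG16 carried the one large change, from 136, 135 and 133 CPM in DMSO to 89.4, 94.6 and 87.8 CPM with GSI (1.49-fold lower, -0.57±0.04, edgeR adjusted p = 6.3e-09). SNHG16 is thus the gene of the 10 that was called lower with both inhibitors in both genotypes. SNHG3 was called lower with CB-103 in both genotypes, and its estimates with GSI were lower but not called. SNHG6 went from 75.9, 73.7 and 81.8 CPM to 62.5, 66.4 and 65.0 CPM (-0.26±0.07, edgeR adjusted p = 0.016). That call was lost without NT DMSO replicate 3 (edgeR adjusted p = 0.076) or NT GSI replicate 1 (0.062). SNHG8 (-0.16±0.06, edgeR adjusted p = 0.040) and SNHG5 (-0.16±0.06, edgeR adjusted p = 0.0496) passed narrowly. The SNHG8 call was lost without NT DMSO replicate 2 or 3 or NT GSI replicate 1 or 3 (edgeR adjusted p from 0.064 to 0.19), and the SNHG5 call without any NT library except NT GSI replicate 2 (0.070 to 0.13).

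The genes that rose most with CB-103 were not called with GSI in NT cells. SNHG1 stood at 119, 103.3 and 126 CPM with GSI (-0.19±0.08, edgeR adjusted p = 0.082) and was called without NT GSI replicate 3 (-0.26, edgeR adjusted p = 0.032). GAS5 stood at 215, 259 and 233 CPM (-0.06±0.08, edgeR adjusted p = 0.65). SNHG12 stood at 20.9, 15.6 and 18.1 CPM (-0.19±0.09, edgeR adjusted p = 0.14) and was called without NT GSI replicate 1 (-0.31, edgeR adjusted p = 0.024). For these 3 genes the GSI libraries overlapped the DMSO libraries. SNHG7 (-0.23±0.08, edgeR adjusted p = 0.057) missed the threshold with libraries that did not overlap, and passed without NT DMSO replicate 1 (0.037) or NT GSI replicate 2 (0.022). SNHG3 (-0.17±0.10) and SNHG15 (0.07±0.11) overlapped.

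In KO cells GSI lowered 2 of the 10, where 19.3% of all genes were called (9.58% lower and 9.69% higher), with a members' median of 0.01. SNHG16 went from 114, 116 and 114 CPM to 91.0, 90.4 and 87.6 CPM (1.28-fold lower, -0.36±0.04, edgeR adjusted p = 3.5e-06). SNHG12 went from 17.4, 20.02 and 20.9 CPM to 15.2, 14.8 and 14.4 CPM (1.31-fold lower, -0.39±0.09, edgeR adjusted p = 0.0064). Both sets of libraries were apart. Among the rest, GAS5 had 300.3, 350.4 and 374 CPM with GSI (0.21±0.08, edgeR adjusted p = 0.079), SNHG6 0.18±0.07 and SNHG5 0.14±0.06 on the log2 scale, none called. Without KO GSI replicate 1 each of these 3 was called higher (edgeR adjusted p = 0.015, 0.024 and 0.045). SNHG3 was lower with libraries apart and was not called (-0.29±0.10, edgeR adjusted p = 0.066). It passed with no count filter (edgeR adjusted p = 0.0052), with only the groups compared (0.031) and with the replicate block (0.031). The genotypes' responses to GSI differed for 2 of the 10 genes, both higher, where 2.79% of genes were called (2.1% higher, 0.692% lower). SNHG6 had a response 0.44±0.10 higher in KO cells (edgeR adjusted p = 0.037) and SNHG16 0.21±0.05 higher (edgeR adjusted p = 0.046), which for SNHG16 was a smaller fall. Leaving out a library ended the SNHG6 call for 9 of the 12 libraries involved and the SNHG16 call for 11 of 12. Without NT GSI replicate 2 both calls held and the interaction was also called for SNHG5 (0.37, edgeR adjusted p = 0.013), SNHG8 (0.34, 0.011) and GAS5 (0.39, 0.041).

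**Figure D2:**
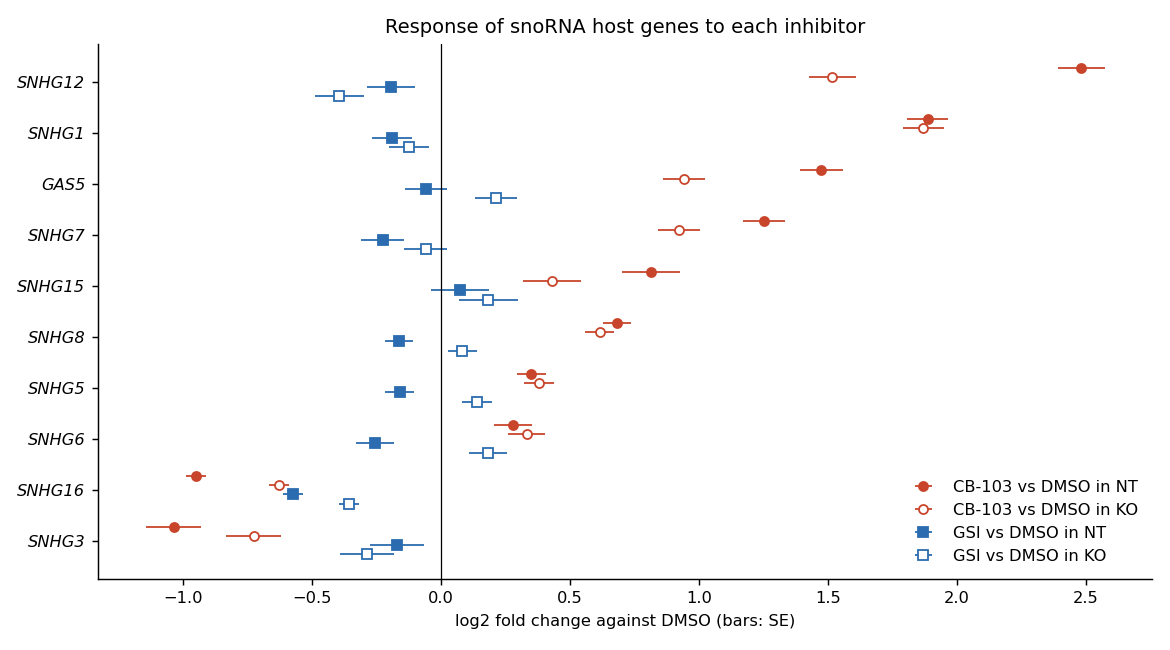
Log2 fold change of each host gene against DMSO (x axis, bars are SE) for CB-103 (circles) and GSI (squares) in NT (filled) and KO (open) cells. CB-103 spans -1.04 to 2.48 in NT cells, and GSI spans -0.57 to 0.07.

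Comparing the inhibitors directly placed the difference on the same genes. In NT cells all 10 differed, 8 higher and 2 lower with CB-103, where 56.3% of genes were called (29.2% higher, 27.1% lower). SNHG12 was 6.39-fold higher with CB-103 than with GSI (2.68±0.09, edgeR adjusted p = 6.6e-14), SNHG1 4.22-fold (2.08±0.08) and GAS5 2.90-fold (1.53±0.08). SNHG16 was lower with CB-103 than with GSI (69.7±1.41 against 90.6±3.59 CPM, -0.38±0.04, edgeR adjusted p = 1.6e-07), and so was SNHG3 (-0.87±0.11). Doses are not given, so the sizes compare these treatments and not the potency of the compounds. In KO cells 6 were higher and 2 lower with CB-103, where 47.9% of genes were called (24.7% higher, 23.1% lower). SNHG6 (0.15±0.07, edgeR adjusted p = 0.10) and SNHG15 (0.25±0.11, edgeR adjusted p = 0.082) were not called there. SNHG15 was called without KO CB-103 replicate 1 (0.022) or KO GSI replicate 2 (0.0495).

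The knockout was compared with the control under each treatment. Under DMSO 1 host gene was higher and 2 were lower in KO than in NT cells, where 21.4% of genes were called (9.78% higher, 11.7% lower). SNHG1 was lower (102.6, 112 and 102 CPM against 124, 127 and 147 CPM, -0.33±0.08, edgeR adjusted p = 0.0045). SNHG16 was lower too (114, 116 and 114 CPM against 136, 135 and 133 CPM, -0.23±0.04, edgeR adjusted p = 2.6e-04). GAS5 was higher (282, 302 and 300.3 CPM against 240.1, 243 and 253 CPM, 0.26±0.08, edgeR adjusted p = 0.027). Its call was lost without NT DMSO replicate 1 or 2 or KO DMSO replicate 2 or 3 (edgeR adjusted p from 0.076 to 0.10), although the libraries did not overlap.

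Under CB-103 1 host gene was higher and 5 were lower in KO cells, where 37% of genes were called (20.4% higher, 16.5% lower). SNHG12 was 2.10-fold lower (55.7±3.87 against 117±8.54 CPM, -1.07±0.08, edgeR adjusted p = 4.1e-08). SNHG15 stood at 47.6, 58.8 and 64.0 CPM in KO and at 74.3, 81.5 and 89.2 CPM in NT cells (1.44-fold lower, -0.52±0.11, edgeR adjusted p = 0.0012). SNHG1 was 1.27-fold lower (-0.35±0.08, edgeR adjusted p = 0.0014). These 3 genes lay apart between genotypes in every library. GAS5 (-0.27±0.08, edgeR adjusted p = 0.014) lost its call without KO CB-103 replicate 1 (0.052). SNHG7 (-0.21±0.08, edgeR adjusted p = 0.048) lost it without any CB-103 library except KO CB-103 replicate 3 (0.060 to 0.092), and SNHG5, the 1 higher gene (0.17±0.06, edgeR adjusted p = 0.023), without NT CB-103 replicate 2 or 3 or KO CB-103 replicate 1 or 3 (0.055 to 0.20). SNHG3 (0.22±0.11, edgeR adjusted p = 0.12) was called higher without NT CB-103 replicate 3 (0.36, 0.0084), and SNHG8 (-0.08±0.05) was called lower when transcript estimates were summed (-0.22, 0.0027).

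Under GSI 5 host genes were higher and 2 were lower in KO cells, where 33.8% of genes were called (18.8% higher, 15% lower). GAS5 stood at 300.3, 350.4 and 374 CPM in KO and at 215, 259 and 233 CPM in NT cells (1.45-fold higher, 0.54±0.08, edgeR adjusted p = 8.1e-05). SNHG5 stood at 265, 281 and 304 CPM against 205, 216 and 204 CPM (1.36-fold, 0.44±0.06, edgeR adjusted p = 1.5e-05). SNHG6 stood at 78.6, 92.3 and 91.5 CPM against 62.5, 66.4 and 65.0 CPM (1.35-fold, 0.44±0.07, edgeR adjusted p = 2.0e-04). No KO library of these 3 genes fell among the NT libraries. SNHG8 was also higher (0.24±0.06, edgeR adjusted p = 0.0034) but not when transcript estimates were summed (0.09, edgeR adjusted p = 0.20), a setting that called SNHG15 lower (-0.28, 0.026). SNHG7 (0.29±0.08, edgeR adjusted p = 0.013) lost its call without NT GSI replicate 1 (0.073) or KO GSI replicate 2 (0.091). SNHG1 (-0.26±0.08, edgeR adjusted p = 0.015) lost it without NT GSI replicate 3 (0.12) or KO GSI replicate 1 (0.067), and SNHG12 (-0.30±0.09, edgeR adjusted p = 0.019) without NT GSI replicate 1 or 3 or KO GSI replicate 2 or 3 (0.0501 to 0.14). The share of mitochondrially encoded counts, 1.90% to 5.51% in NT GSI and 2.40% to 2.57% in KO GSI, also differed in spread between these groups, and its part in the result was not tested.

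The order of the 6 groups was read for each gene from its CPM. SNHG16 had the clearest order, from NT DMSO through KO DMSO to NT and KO GSI, which overlapped, then KO CB-103 and last NT CB-103. SNHG12, SNHG1 and GAS5 had NT CB-103 first and KO CB-103 next, both apart from all other groups, and below these 2 groups SNHG12 overlapped in neighbouring groups except for KO GSI, which came last. SNHG5 had KO CB-103 first and ended with KO DMSO, NT DMSO and NT GSI, each apart from the next. SNHG6 overlapped between all neighbours down to KO DMSO, and NT GSI came last and apart.

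The annotation divides the RNAs of several host genes into transcripts that keep an intron and other, mostly spliced, transcripts. With CB-103 the 2 classes moved unequally in 3 of the genes that rose. In SNHG1 the other transcripts summed to 127, 146 and 140.1 TPM in NT DMSO and to 812, 879 and 916 TPM in NT CB-103, a ratio of means of 6.31. Its retained-intron transcripts stood at 108, 99.1 and 138 TPM and at 94.0, 107 and 104 TPM, so the groups overlapped. Their share of SNHG1 thus went from 46.0%, 40.4% and 49.7% to 10.4%, 10.9% and 10.2%. In KO cells the share of SNHG1 went from 41.9%, 39.3% and 36.9% to 7.85%, 12.5% and 8.93%.

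SNHG12 behaved alike. Its other transcripts went from 16.1, 13.6 and 13.4 TPM in NT DMSO to 197, 185 and 201 TPM in NT CB-103, a ratio of 13.5, and its retained-intron transcripts from 25.0, 27.4 and 29.2 TPM to 40.0, 44.0 and 55.7 TPM, a ratio of 1.71. Retained-intron transcripts made up 60.9%, 66.9% and 68.6% of SNHG12 in NT DMSO and 16.9%, 19.2% and 21.7% in NT CB-103. In KO cells the share was 55.7%, 60.9% and 61.9% in DMSO and 22.8%, 40.9% and 23.8% with CB-103, where replicate 2 was higher than the others. The genotype difference of SNHG12 under CB-103 lay mainly in the other transcripts (82.9, 73.0 and 89.4 TPM in KO cells).

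In GAS5 the other transcripts went from 658, 696 and 689 TPM to 1981, 2293 and 2303 TPM in NT cells, a ratio of 3.22, while retained-intron transcripts stood at 121, 111 and 135 TPM and at 134, 112 and 127 TPM. Their share went from 15.5%, 13.7% and 16.4% to 6.33%, 4.65% and 5.23%. In KO cells the share of GAS5 went from 16.0%, 11.9% and 11.1% to 5.88%, 5.86% and 4.65%. SNHG3, one of the genes that fell, lost both classes in NT cells, retained-intron transcripts by a ratio of 0.529 and others by 0.491, and its shares overlapped. SNHG6 had a share of 9.36±2.25% in NT DMSO and 6.23±1.04% in NT CB-103, which overlapped. SNHG5 and SNHG16 had at most 1.1% in any library, and no retained-intron transcript is annotated for SNHG7, SNHG8 and SNHG15.

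**Figure D3:**
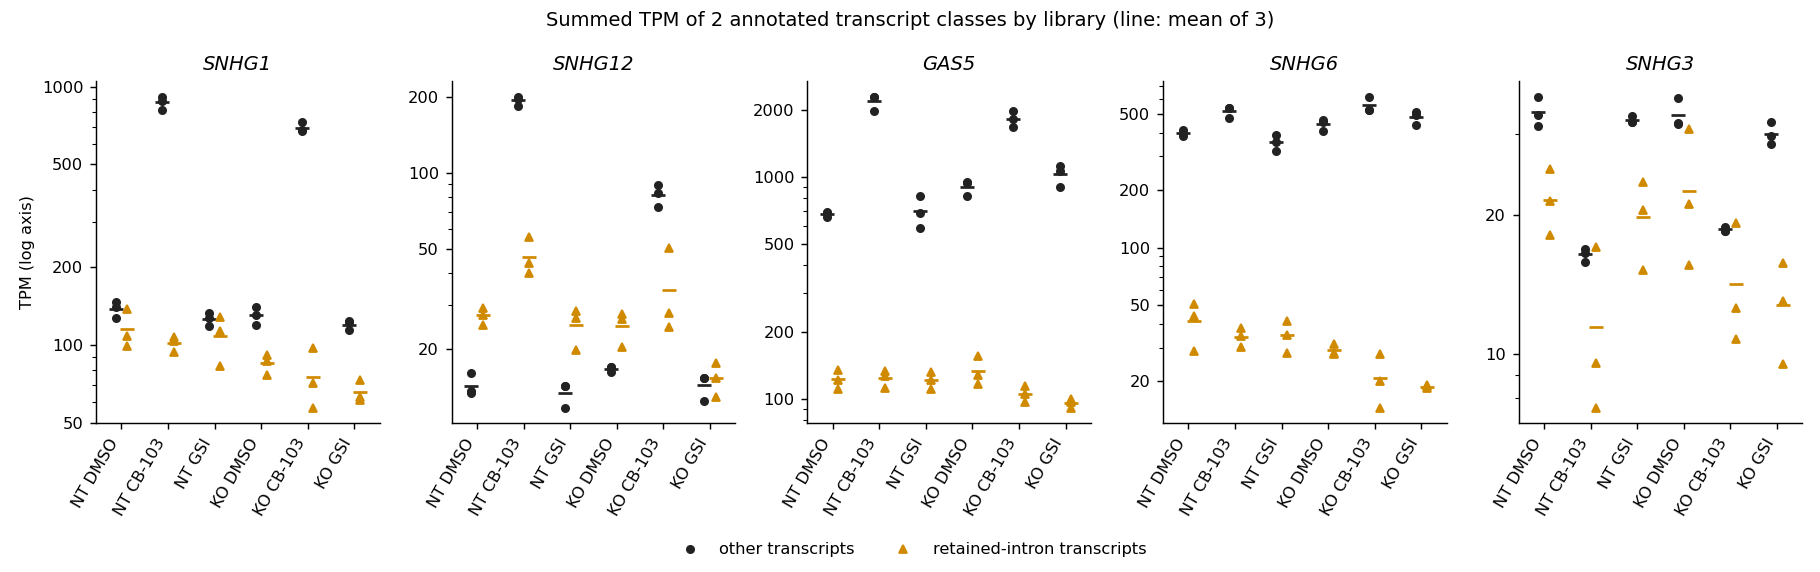
Summed TPM (log axis) of retained-intron transcripts (triangles) and other transcripts (circles) of 5 host genes, by library and group, with lines at the means of 3. For SNHG1 in NT cells the other transcripts rise from 127 to 146 TPM in DMSO to 812 to 916 TPM with CB-103 while the retained-intron transcripts overlap.

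To read these shares against other genes, 2828 genes with both classes were examined (mean of at least 5 TPM and a mean share from 5% to 95%), a set chosen after the shares of the host genes had been seen. With CB-103 in NT cells the share was lower in all 3 libraries than in any DMSO library for 9.16% of these genes and for 3 of the 5 host genes in the set (SNHG1, SNHG12 and GAS5). The median share over the set moved by 0.593 percentage points upward. With CB-103 in KO cells 16.2% of the set and 4 of the 5 host genes were lower (these 3 and SNHG6), and the median moved by -1.74 points. GSI gave 1.98% of the set and none of the 5 in NT cells, and 18.5% and 2 of 5 in KO cells. No test was run on these estimated shares. They rest on 923 to 3382 reads per library assigned to retained-intron transcripts of SNHG1, on 309 to 1295 for SNHG12 and on 1115 to 2396 for GAS5.

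The estimated share of single transcripts in a gene also differed. No test was run on these shares, and they were not set against those of all genes. SNHG1-217 made up 2.00% of SNHG1 in NT DMSO (1.37% to 3.07%) and 13.2% in NT CB-103 (9.50% to 16.2%), and in KO cells it went from 2.50% to 12.2%. SNHG8-201 went from 38.7% (36.0% to 40.5%) to 69.3% (67.0% to 71.7%) of SNHG8 in NT cells and from 33.5% to 55.4% in KO cells. In NT cells the SNHG8-201 shares with CB-103 lay apart from those in DMSO. SNHG15-207 went from 14.5% (13.5% to 15.1%) to 5.54% (4.79% to 6.19%) of SNHG15 in NT cells. SNHG16-202 made up 64.8% (61.9% to 66.4%) of SNHG16 in NT DMSO and 51.2% (48.9% to 53.7%) in NT CB-103. SNHG5 kept 1 main transcript, SNHG5-202, with group means of 91.6% to 94.9%.

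Genes whose start lies within 2 kb of a host gene's start were examined next, since neighbours can share a promoter. SLC3A2, which encodes the heavy chain of amino acid transporters, starts 188 bases from SNHG1 on the opposite strand. It rose with CB-103 from a mean of 169 to 864 CPM in NT cells (2.35±0.09, edgeR adjusted p = 1.9e-13) and by 1.98±0.09 in KO cells, beside 1.89 and 1.87 for SNHG1. With GSI SLC3A2 fell (-0.60±0.08, edgeR adjusted p = 4.9e-05, in NT cells), whereas SNHG1 was not called. RCC1, the nucleotide exchange factor of the RAN GTPase, starts 37 bases from SNHG3 on the same strand. It fell with CB-103 in NT cells (-1.09±0.05, edgeR adjusted p = 1.8e-12) beside -1.04 for SNHG3, and in KO cells both fell by 0.73. With GSI RCC1 was called lower in NT cells (-0.46±0.05, edgeR adjusted p = 1.2e-06) and in KO cells (-0.23±0.05, edgeR adjusted p = 0.0021). SNHG3 was not called with GSI in either genotype. RCC1 and SNHG3 share 242 exon bases on 1 strand, 5.92% of the exon bases of SNHG3, so reads there could be assigned to either gene. ZBTB37, 800 bases from GAS5 on the opposite strand, moved against GAS5 (-0.29±0.10 with CB-103 in NT cells, edgeR adjusted p = 0.022).

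**Figure D4:**
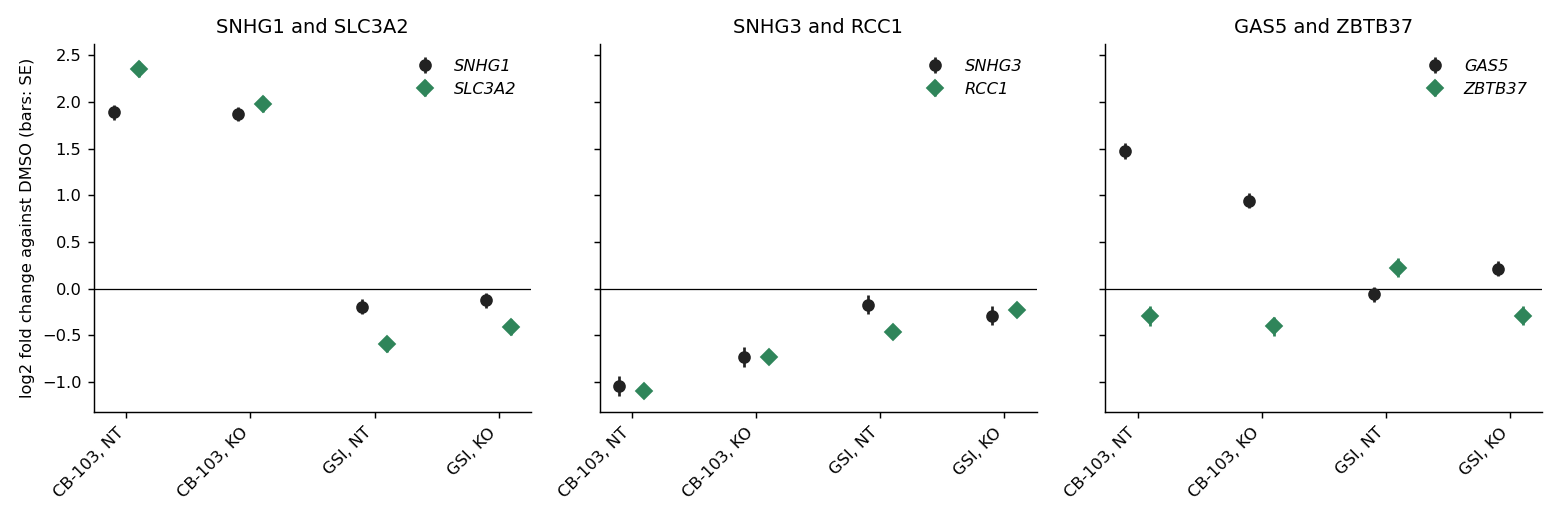
Log2 fold change against DMSO (y axis, bars are SE) of 3 host genes (circles) and the genes that start within 2 kb of them (diamonds), for each inhibitor and genotype (x axis). With CB-103 SLC3A2 and RCC1 lie near SNHG1 and SNHG3, and ZBTB37 lies below GAS5. With GSI in NT cells ZBTB37 lies above GAS5.

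Promoter sequences were available for 8 of the 10 genes in a RefSeq table (GRCh38.p14, mostly upstream of the start, 300 bases each, 35116 entries). They were searched on both strands for TGGGAA, the core of the site bound by RBPJ, the DNA-binding partner of NOTCH, and for the E-box CACGTG. The RBPJ core was in 2 of the 8, those of SNHG3 and SNHG16, and in 24.0% of all promoters, so its share among the host genes is near the background. The promoters of these 2 genes, which fell with CB-103, are shown with the motif, which reads TTCCCA on the gene's strand, in capitals.
SNHG3 promoter (chr1:28505693-28505992, plus): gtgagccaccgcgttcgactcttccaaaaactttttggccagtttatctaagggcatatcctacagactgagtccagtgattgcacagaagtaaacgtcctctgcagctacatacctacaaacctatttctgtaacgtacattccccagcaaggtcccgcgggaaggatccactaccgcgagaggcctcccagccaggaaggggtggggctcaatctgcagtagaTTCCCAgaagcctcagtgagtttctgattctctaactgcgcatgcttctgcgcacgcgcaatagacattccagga
SNHG16 promoter (chr17:76557514-76557813, plus): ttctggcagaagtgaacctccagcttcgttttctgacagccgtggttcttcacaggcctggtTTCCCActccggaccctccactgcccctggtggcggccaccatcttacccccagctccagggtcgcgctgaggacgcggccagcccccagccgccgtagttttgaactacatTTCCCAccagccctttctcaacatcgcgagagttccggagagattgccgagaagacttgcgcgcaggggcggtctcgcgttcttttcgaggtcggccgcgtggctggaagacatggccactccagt

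The motif begins at -25 from the annotated start in SNHG3 and at -188 and -76 in SNHG16. A match describes the letters and is not evidence of binding, which was not measured. CACGTG was in 1 of the 8 promoters, that of SNHG7 at -122, and in 7.26% of all promoters. A start with C followed by at least 4 pyrimidines, the form of a terminal oligopyrimidine (TOP) start, was found on the gene's strand for SNHG5 and SNHG12 and for 4.07% of all entries. The first bases of both are shown, with the pyrimidine run in capitals. Annotated starts can be off by some bases, and the RefSeq start lies 1259 bases from the GENCODE one for SNHG12 and 163 bases for GAS5.
SNHG5 start (chr6:85678714-85678733, minus): CTTTTacgtcggccttcgcg
SNHG12 start (chr1:28581854-28581873, minus): CCTTTCTCCCCgccgcattc

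With CB-103 in NT cells SNHG12 had the largest rise of the 10 genes and SNHG5 one of the smallest. In GENCODE only the transcript with the highest mean TPM of each gene was read. SNHG5-202 also starts with such a run, of 5 pyrimidines, and SNHG12-212 starts with none. SNHG12 has 17 annotated transcripts, and whether another of them starts with the run was not examined. In the same annotation SNHG16-202 starts with 5 pyrimidines and GAS5-221 with 4, both with T first, which the form searched for leaves out.

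Genes that work with snoRNAs or resemble their hosts were counted in fixed lists, to be read against all genes tested: 29.5% rose and 28.7% fell with CB-103 in NT cells, 24.9% and 23.7% in KO cells, and 9.67% and 15% with GSI in NT cells. Of the 4 core proteins of box C/D particles 3 fell and 1 rose with CB-103 in NT cells: NOP56 (-0.85±0.06), the methyltransferase FBL (-0.64±0.05) and SNU13 (-0.29±0.07) fell, and NOP58 rose (0.35±0.09). All 4 core proteins of box H/ACA particles fell, among them NHP2 (-1.01±0.12) and the pseudouridine synthase DKC1 (-0.58±0.07). With GSI in NT cells all 4 of each list fell. Of 12 assembly factors of these particles 3 rose and 5 fell with CB-103 in NT cells, near the shares of all genes, with the ATPase RUVBL1 at -0.86±0.05. With GSI in NT cells 9 of the 12 fell, with NOLC1 at -0.83±0.07. With CB-103 in NT cells 7 of these 8 core proteins thus fell, where 8 of the 10 host RNAs rose.

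Other non-coding host genes moved in both directions. With CB-103 in NT cells 8 of 16 measured rose and 5 fell (median 0.11, against 0.75 for the 10 and 0.04 for all genes), led by EPB41L4A-AS1 (2.00±0.11), ZFAS1 (1.93±0.07) and SNHG32 (1.66±0.13) upward and SNHG4 (-2.14±0.08) downward. In KO cells 6 rose and 5 fell. Members and lists were chosen with earlier results of these data known, so their medians are set side by side only as a description. With GSI in NT cells 5 of the 16 fell, SNHG4 by -0.66±0.08. Protein-coding hosts mostly moved down or were not called with CB-103 in NT cells: 3 of 25 rose and 13 fell (median -0.19), with PPAN at -1.82±0.06, EIF4A1 at -1.16±0.08 and TAF1D at 0.89±0.05. With CB-103 in KO cells 7 of the 25 rose and 8 fell (median 0.01). Among 15 TOP mRNAs outside the ribosome 3 rose and 6 fell with CB-103 in NT cells (29.5% and 28.7% of all genes), with HNRNPA1 at -0.87±0.05 and TPT1 at 0.41±0.06. In KO cells 8 rose and 1 fell (24.9% and 23.7% of all genes). Of 14 factors of nonsense-mediated decay 7 rose and 4 fell with CB-103 in NT cells, the latter near the 28.7% of all genes that fell. With CB-103 in KO cells 4 rose and 3 fell, near the 24.9% and 23.7% of all genes. With GSI in NT cells 1 rose and 6 fell (9.67% and 15% of all genes). The following values are for CB-103 in NT cells. UPF3B (0.83±0.07), UPF3A (0.66±0.07) and the kinase SMG1 (0.57±0.05) rose, and EIF4A3 of the exon junction complex fell (-0.60±0.05).

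How far the host genes vary together was described over the 18 libraries, which share the same 6 groups, so that the step with CB-103 sets much of each value. The closest pair was SNHG7 and SNHG8 (Pearson r of log2 CPM 0.988), followed by GAS5 and SNHG8 (0.976) and SNHG1 and SNHG12 (0.976). SNHG5 and SNHG6, the 2 genes with the smallest rise, had 0.930 with each other and 0.652 and 0.670 with SNHG1. SNHG3 and SNHG16 had 0.858 with each other and negative values with all other members, from -0.524 to -0.903. Among 10428 other genes that averaged 5 CPM or more, those most like SNHG1 were PLK3 and SEC24A (both 0.992), those most like SNHG12 were NRDC (0.994) and ZNF543 (0.992), and those most like GAS5 were RNF181 (0.989) and the snoRNA host ZFAS1 (0.986). SNHG16 was most like CD3G (0.989) and CISD3 (0.986), and SNHG3 like LRFN4 (0.969) and TRAF5 (0.962). The 2 nearest genes of the rest were SPRTN and SNAPC5 for SNHG5 (0.980 and 0.976), RPL26 and EMC4 for SNHG6 (0.945 and 0.938), ADRM1 and MCFD2 for SNHG7 (0.992 and 0.991), HAX1 and DPH5 for SNHG8 (0.988 and 0.987), and TRBV19 and FBXO4 for SNHG15 (0.964 and 0.957).

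Overlap with genes on the opposite strand was checked because it can add reads where strand is lost. SNHG6 (chr8:66921684-66926398) overlaps MCMDC2 over 29.3% of its exon bases, SNHG7 overlaps DIPK1B over 25.2% and SNHG16 overlaps an unnamed gene over 30.6%. Those opposite genes had mean levels of 0.016, 0.0051 and 0.024 TPM, far below the 488.6, 94.5 and 82.8 TPM of the host genes.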

How the data were processed

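Libraries were polyA-selected and stranded, read from both ends at 75 nucleotides, per the labels' protocols. Tools listed in the submitters' processing notes are Salmon 1.4.0, HISAT2 2.2.1, FastQC 0.11.9 and bcl2fastq 2.20, with the build hg38. The authors deposited rounded estimated counts per gene and, per library, estimated counts and TPM per transcript, per the file headers. How gene values were made from transcripts is not given in the sources used here. A variance-stabilised log2 table that the authors deposited was not used. Counts were tested with edgeR 4.0.16 (filterByExpr, TMM scaling, glmQLFit and glmQLFTest on all 18 libraries, 12 residual degrees of freedom), adjusted by Benjamini-Hochberg over 17346 genes. CPM came from TMM-scaled counts, and TPM were summed over annotated transcripts of GENCODE 29, which all 206601 transcripts matched. The test was also run on counts simulated from the means and spread of this fit, with libraries drawn independently. That run cannot show how effects shared between libraries alter the calls. Named genes were all 10 host genes, PIK3R1, MYC and DTX1 as checks, up to 4 called genes per list, neighbours within 2 kb and the 2 most alike genes. The members and lists were chosen with earlier results of these data known. Alternatives were DESeq2 1.42.0 (size factors, Wald test), no filter, only the groups compared, a replicate block, transcript sums, replicates 2 and 3 only, and leaving out each library.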

Additional observations from a re-analysis of the deposited data

Results flagged for a closer look

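Responses that differed between genotypes by the interaction test were these 5. For CB-103, the response of KO cells minus that of NT cells was -0.96 for SNHG12, -0.53 for GAS5 and 0.32 for SNHG16 on the log2 scale. These 3 calls held without any 1 of the 12 libraries involved (edgeR adjusted p at most 3.7e-04, 0.014 and 0.0065). For GSI it was 0.44 for SNHG6 and 0.21 for SNHG16, and both calls were lost without most single libraries.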

How the results depend on the processing

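All calls of CB-103 against DMSO in NT and in KO cells and of CB-103 against GSI in NT cells kept their direction and side of the threshold under every alternative (130 of 130 values in each comparison). Their sizes depended on the setting for some genes. With all libraries or whole replicates kept, CB-103 against DMSO in NT cells ranged in log2 from 1.89 to 2.48 for SNHG12. The range was 0.59 to 0.85 for SNHG15 and 0.64 to 0.96 for SNHG8. Counts of called members varied elsewhere. For GSI in NT cells (4) the count was 2 in a fit to only the groups compared, 6 with the DESeq2 Wald test, 6 with the replicate block and 1 to 5 when libraries were left out. For GSI in KO cells (2) it was 6 with the DESeq2 Wald test, 6 with the replicate block, 6 in replicates 2 and 3 only and 2 to 5 with libraries left out. Between genotypes under CB-103 (6) it was 3 to 5 with libraries left out. For the CB-103 interaction (3) it was 5 with the replicate block, which added SNHG15 (edgeR adjusted p = 0.0017) and SNHG7 (0.021). For the GSI interaction (2) it was 4 with the Wald test, 1 with no count filter, 5 with the replicate block, 1 with transcript sums, 0 in replicates 2 and 3 only and 0 to 5 with libraries left out, where 5 had an unadjusted p under 0.05 in the full fit. The labels do not say what a replicate number marks, and for that reason the main fit took no pairs. Deviations of same-numbered libraries were correlated over 0.1 in 31 of 45 pairs (range -0.0713 to 0.352, against a median of -0.136 for different numbers). Libraries numbered 1 deviated together (lowest correlation 0.257), and SNHG15 and GAS5 were lowest in replicate 1 in 6 of 6 groups. Pairs of a number 2 with a number 3 library were also often positive, up to 0.227 (NT GSI replicate 3 with KO CB-103 replicate 2). Libraries numbered 1 may thus share something that the main fit leaves out, which is less clear for numbers 2 and 3. Calls that changed with the replicate block depend on the choice to take no pairs.

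Values not called in the full fit changed sign as follows (log2). In replicates 2 and 3 only these were SNHG7 for GSI in KO cells (0.04), SNHG6 for genotype under DMSO (0.0053), SNHG15 for genotype under GSI (0.0022), and SNHG1 (0.044) and SNHG8 (0.017) for the CB-103 interaction. SNHG6 under DMSO was 0.0011 with no filter and 0.0029 with only the groups compared. SNHG16 for genotype under GSI was 0.0036 by the Wald test. SNHG1 for the CB-103 interaction was 0.0050 with DESeq2 size factors, 0.014 by the Wald test and 0.014 with transcript sums, which gave -0.034 (SNHG1) and -0.039 (SNHG15) for the GSI interaction. With single libraries left out the ranges that crossed 0 were, for GSI in NT cells, GAS5 -0.15 to 0.0013, and in KO cells SNHG7 -0.15 to 0.033. Between genotypes they were SNHG6 -0.046 to 0.042 and SNHG8 -0.045 to 0.038 under DMSO, SNHG6 -0.059 to 0.072 under CB-103, and SNHG15 -0.10 to 0.069 and SNHG16 -0.025 to 0.054 under GSI. For the CB-103 interaction they were SNHG1 -0.095 to 0.029, SNHG5 -0.030 to 0.065 and SNHG6 -0.048 to 0.085, and for the GSI interaction SNHG1 -0.0098 to 0.16 and SNHG3 -0.16 to 0.0019.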
